A study of Mus musculus with 2 samples.

Results

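The mouse microRNA families miR-297, miR-466, miR-467 and miR-669 were followed in 2 microRNA sequencing libraries of embryonic hindbrain. The members were all genes of the deposited tables whose GENCODE M21 symbol starts with Mir297, Mir466, Mir467 or Mir669, and 69 of 1973 genes met that rule. Of these, 59 lie inside Sfmbt2 on chromosome 2 and 10 lie elsewhere. The 12 further M21 genes of these names, Mir466b-1, Mir466c-1, Mir466e and Mir669a-4 to Mir669a-12, are in the same intron. Their M21 gene identifiers are not among those of the 1973 genes, and they were not analysed here. Whether any of them is counted under an older identifier was not tested. The samples were hindbrains, the source of cerebellum, pons and medulla, from healthy mice of strain B6NCrl at embryonic day 15.5. Each library came from a separate pool of male and female embryos, 78 in replicate 1 and 62 in replicate 2, and no genetic change or treatment is given for either. The series holds this 1 group, so levels are described and only the 2 pools can be compared.

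A microRNA gene is transcribed into a longer RNA that folds into a hairpin, which is cut to a mature strand of about the length of a small RNA read. Bases 2 to 8 of the mature strand, the seed, largely choose the messenger RNAs that it represses. Sfmbt2 encodes a Polycomb-group protein and is imprinted, expressed from the paternal allele in the extraembryonic tissues of the mouse. Rats and mice carry a large cluster of microRNA genes in one of its introns, built by repeated duplication, which is known for its expression in placenta and embryonic stem cells. Its hairpins are rich in G and U on one arm and in C and A on the other.

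Mature sequences of 8 members are shown, the only members for which one was found. All 8 lie outside Sfmbt2 and had 0 reads, and none of the members with reads was matched. The 8 sequences display the repeat-like letters of the miR-466, miR-467 and miR-669 families. They are from RefSeq, build GRCm38.p6, written 5′ to 3′ with the seed in capitals, and 9 of the 69 members were matched there by symbol.
miR-466i-3p, chr13:17747552-17747573, plus strand: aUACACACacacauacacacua
miR-466j, chr10:60960802-60960824, plus strand: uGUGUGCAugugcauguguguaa
miR-466k, chr3:85467396-85467418, plus strand: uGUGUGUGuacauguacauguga
miR-466q, chr3:28419988-28420007, plus strand: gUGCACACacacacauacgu
miR-467f, chr11:69635419-69635439, minus strand: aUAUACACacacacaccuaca
miR-467g, chr5:34732872-34732892, minus strand: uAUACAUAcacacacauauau
miR-467h, chr9:115381898-115381919, plus strand: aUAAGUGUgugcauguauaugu
miR-669n, chr3:115979905-115979924, plus strand: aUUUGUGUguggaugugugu

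The 8 seeds all differ, although 4 of them hold GUGU and 3 hold ACAC. Members that share a family number therefore need not share a seed: miR-466j and miR-466k have G and U in their seeds, while miR-466i-3p and miR-466q have mostly C and A. Of the 8 mature sequences, 7 occur in their own hairpin and in no other M21 microRNA gene. The sequence of miR-467h occurs in 3 hairpins, its own and those of the predicted genes Gm25510 and Gm26303. Outside these families its seed is found in 1 mature sequence of the RefSeq table, miR-668-5p, whose gene Mir668 had 558 and 746 reads in replicates 1 and 2. Reads are counted per gene, so how many of them came from miR-668-5p is not known. The 2 hairpins below, with the mature strand in capitals, show repeats that reach past the mature strand. The longest run of alternating G and U was 23 of 122 nt in Mir466k and 12 of 121 nt in Mir467h.
Mir466k hairpin, chr3:85467377-85467498, plus strand: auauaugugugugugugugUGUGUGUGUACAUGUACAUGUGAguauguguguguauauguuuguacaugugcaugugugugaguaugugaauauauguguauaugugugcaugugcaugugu
Mir467h hairpin, chr9:115381819-115381939, plus strand: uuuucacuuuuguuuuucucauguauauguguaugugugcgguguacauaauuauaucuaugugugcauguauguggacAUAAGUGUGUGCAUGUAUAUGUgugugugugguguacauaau

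Each library held 3937840 (replicate 1) and 4839647 (replicate 2) reads on the genes' own strand, and levels are given as CPM, reads per 1000000 of that total. Reads placed at several loci, 35.4% and 34.2% of all reads, are listed apart from the genes. Of 13 hindbrain and neural marker genes 12 were found and all 12 had reads, with a summed level of 123197 and 164001 CPM, mostly from Mir10a and Mir10b of the Hox clusters. Within that list Mir124a-1, Mir124a-2, Mir124a-3 and Mir9-2 had only 6 to 21 reads in a library. Reads placed at several loci are not in these counts, so they need not show the level of the mature strands. How many reads were shared between such gene copies was not tested. The stem cell and early embryo list, which holds genes known from the same cell types as the Sfmbt2 cluster, summed to 948 and 985 CPM. Of 10 genes found 8 were above 0, with Mir290a and Mir367 at 0. Most of that sum came from Mir302a, Mir302b and Mir302d, with means of 372, 231 and 309 CPM. Mir291a, Mir293, Mir294 and Mir295 had means of only 0.588, 8.19, 8.81 and 0.897 CPM. The other lists summed to 35.6 and 57.0 CPM (liver), 27.2 and 23.3 (striated muscle, with Mir1a-1 and Mir133a-1 at 0), 480 and 356 (blood), 25702 and 22600 (endothelium) and 6612 and 5908 (mesenchyme). The part of any of these cells in the values below was not tested.

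All reads counted for the 4 families were on genes of the Sfmbt2 intron. The 59 genes there held 21370 reads in replicate 1 and 25543 in replicate 2, or 0.543% (95% exact Clopper-Pearson interval 0.535 to 0.550) and 0.528% (0.521 to 0.534) of the gene reads. Their summed level was 5352 ± 105 CPM (SD, n = 2), below that of 35 single genes of the tables. The 10 genes elsewhere had 0 reads in both libraries. By counting error only, 0 reads allow up to 3 reads, which is 0.762 CPM in replicate 1 and 0.62 CPM in replicate 2. Reads carry no molecular identifiers here, so all intervals and limits cover counting error alone. The limit does not cover reads placed at several loci, which the layout of the tables lists apart from the genes.

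On the opposite strand the 69 genes had 0 reads in each library, which allows at most 0.0140% and 0.0117% of their reads. Over all genes of the tables, 2.22% and 2.09% of the gene reads lay on the opposite strand.

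Few members carried the signal. At least 10 reads in both libraries were counted for 10 of the 69 genes, 11 had some reads but at most 5 in a library, and 48 had none. That is 14.5% of the members with at least 10 reads in both, beside 18.9% of all 1973 genes, and 69.6% of the members with no read, beside 63.5%. The 10 genes held 99.9% ± 0.0179 of the families' reads. By family, they were 3 of 17 Mir467 genes, 5 of 21 Mir669 genes, 1 of 25 Mir466 genes and 1 of 6 Mir297 genes.

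The miR-467 family led in reads counted on genes. Mir467d (ENSMUSG00000077021.2, chr2:10507630-10507714) had 6299 reads in replicate 1 and 7932 in replicate 2, a level of 1619 ± 27.8 CPM, and stood at rank 79 of all genes. Mir467e (ENSMUSG00000076948.2, chr2:10505721-10505807) had 5987 and 7321 reads, or 1517 ± 5.42 CPM. Mir467c (ENSMUSG00000077049.2, chr2:10473931-10474027) had 5231 and 5353 reads, or 1217 ± 157 CPM. The order of these 3 was the same in each library, and Mir467c had the largest SD of the 3. Together they held 82.0% of the families' reads in replicate 1 and 80.7% in replicate 2. The other 14 Mir467 genes, among them Mir467a-1 to Mir467a-10, had 1 read in all, of Mir467b in replicate 1.

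The 3 leading hairpins are near copies of one another. Mir467c and Mir467e were identical at 95.3% of 86 aligned bases, Mir467c and Mir467d at 95.3% of 85, and Mir467d and Mir467e at 94.1% of 85. The longest exact stretch was 48 nt between Mir467c and Mir467e and 34 nt for either of them with Mir467d. Mir467d also shared 60 nt with each of 10 other genes, copies of Mir467a among them. A read from such a stretch fits more than 1 gene, so the levels of all 3 are uncertain.

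**Figure D1:**
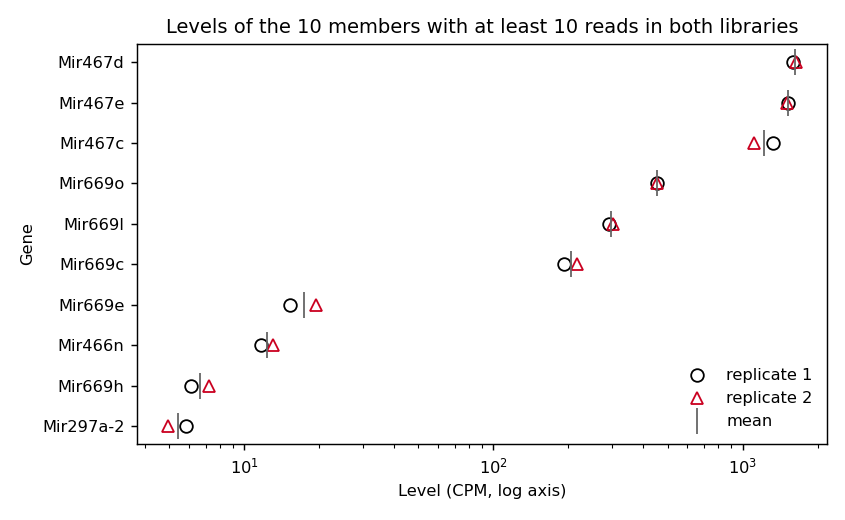
Level in CPM (log axis) of the 10 genes with at least 10 reads in both libraries, with a circle for replicate 1, a triangle for replicate 2 and a tick for their mean. The 3 Mir467 genes stand highest and the order of the 6 highest genes is the same in both libraries.

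The miR-669 family came next, with 979 ± 28.5 CPM in all. Mir669o (ENSMUSG00000077086.1, chr2:10514300-10514395) had 1781 and 2192 reads, or 453 ± 0.458 CPM. Mir669l (ENSMUSG00000076959.1, chr2:10468971-10469068) had 1147 and 1455 reads, or 296 ± 6.62 CPM. Mir669c (ENSMUSG00000076118.1, chr2:10509296-10509404) had 759 and 1052 reads, or 205 ± 17.4 CPM. These 3 genes were well separated from one another and from the Mir467 genes in both libraries, and held 17.8% ± 0.808 of the families' reads. Mir669c and Mir669o were identical at 91.1% of 90 aligned bases, with a longest exact stretch of 27 nt.

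Below them was a wide gap. Mir669e (ENSMUSG00000080653.1, chr2:10467495-10467613) had 60 and 94 reads, or 17.3 ± 2.96 CPM. Mir669h (ENSMUSG00000080594.1, chr2:10518155-10518279) had 24 and 35 reads, or 6.66 ± 0.804 CPM. Mir466n (ENSMUSG00000077991.1, chr2:10513741-10513834), the only one of its family past 10 reads, had 46 and 63 reads, or 12.3 ± 0.945 CPM. Mir297a-2 (ENSMUSG00000076983.2, chr2:10472254-10472343) had 23 and 24 reads, or 5.40 ± 0.623 CPM. Mir669h and Mir297a-2 were within 1 read of each other in replicate 1 and cannot be ordered. The miR-466 family, the largest of the 4, held 14.1 ± 1.33 CPM in all, 0.265% ± 0.0300 of the families' reads, and the miR-297 family held 5.71 ± 0.185 CPM.

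The 11 genes with fewer reads had 13 reads in replicate 1 and 22 in replicate 2 together. The highest was Mir669f with 3 and 5 reads. Mir466b-3 had 1 and 3 reads, Mir466h and Mir466o each 2 and 1, and Mir466l had 1 in each library. Mir466 and Mir669d-2 had 0 and 4 reads and Mir297b had 0 and 3, while Mir669a-3 had 2 and 0. Mir467b and Mir669d had 1 and 0. Only 5 of the 11 were seen in both libraries, and at such counts presence in 1 library and absence from the other is within counting error.

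The cluster spans 51.6 kb, chr2:10466663-10518279 (GRCm38), on the strand of Sfmbt2. M21 places all of it within 1 intron, chr2:10461473-10523944, which is 62472 nt long, and none of the 59 genes touches an Sfmbt2 exon. It is intron 10 of transcript ENSMUST00000041105.6 and intron 11 of ENSMUST00000116594.8. Neighbouring members start a median of 417 nt apart. In the middle lie the copies of Mir467a, Mir467a-1 to Mir467a-10, whose starts are a median of 2462 nt apart (2413 to 4880), so this part is a tandem array.

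Reads lay on both flanks of that array and hardly within it. The 15 members before the array held 6469 and 6936 reads, or 28.7% ± 2.20 of the cluster's reads, and the 21 members after it held 14900 and 18607, or 71.3% ± 2.21. The 23 members of the array, 27.0 kb from chr2:10476346-10503355, held 1 and 0 reads. Mir466c-1, Mir466e and Mir669a-4 to Mir669a-11 also lie in this span, but no count was found under their M21 identifiers and they are not among the 23. Of the genes with at least 10 reads in both libraries 4 lie before the array (Mir669e, Mir669l, Mir297a-2 and Mir467c) and 6 after it (Mir467e, Mir467d, Mir669c, Mir466n, Mir669o and Mir669h). The division into array and flanks was made after the reads were seen and is a description.

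**Figure D2:**
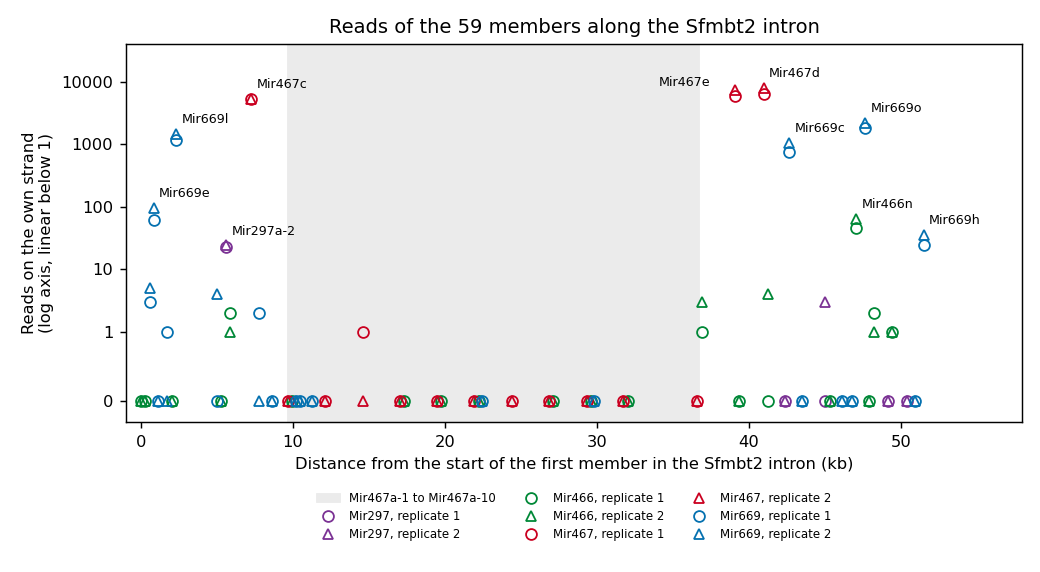
Reads on the own strand (log axis, linear below 1) of the 59 members inside Sfmbt2 against the distance in kb from the start of the first member, coloured by family, with circles for replicate 1 and triangles for replicate 2. The shaded span from Mir467a-1 to Mir467a-10 holds 1 read in all, and the genes with at least 10 reads stand on both sides of it.

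The array is also where the hairpins are least distinct. For every hairpin the share of its 20 nt windows that occur in no other M21 microRNA gene, on either strand, was counted. In the array 19 of 23 members had no such window, and the median share was 0. The median share was 39.2% for the members before the array, all of which had at least 1 such window, and 37.9% after it, where 1 of 21 had none. Inside Sfmbt2, 17 members had another M21 microRNA gene with an identical hairpin, among them 9 of the 10 Mir467a copies, and these 17 had 0 reads.

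Over all 69 members, 20 had no window of their own and each of these had 0 reads in both libraries. Of the other genes of the tables without such a window, 239 of 244 did not reach 10 reads in both libraries. By that cutoff the members, 20 of 20, stand near the background. How many of the 244 had 0 reads was not counted. At least 1 window of 20 nt was shared with another microRNA gene in 97.1% of the members, beside 48.5% of the other genes of the tables with a sequence. Members without any window of their own were 29.0%, beside 13.4% of the other genes. Of the 6 members with at least 100 reads in both libraries, Mir467d had the smallest share of own windows, 37.9%, followed by 50.6% for Mir669l and Mir669o, 57.4% for Mir467e, 60.3% for Mir467c and 81.1% for Mir669c. The lowest share of any member with a read was 20.4%, for Mir467b.

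Own windows did not go with reads throughout. Of the 59 members under 10 reads, 39 had at least 1 window of their own, 29 of them inside Sfmbt2. Among the other genes under 10 reads, 1224 had such a window and 239 had none. A share of at least 80% was found in 10 members, and 2 of these, Mir669c and Mir669e, had at least 10 reads in both libraries. The other 8 had at most 2 reads in a library: Mir466g, Mir669b, Mir466h and Mir466l inside Sfmbt2, and Mir669n, Mir466f-4, Mir466j and Mir467f elsewhere. Mir466g and Mir669n had 0 reads with 100% of windows their own. Only annotated microRNA genes were searched, so copies of these repeats in the rest of the genome are not counted, and how many reads of the families were placed at several loci was not tested.

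**Figure D3:**
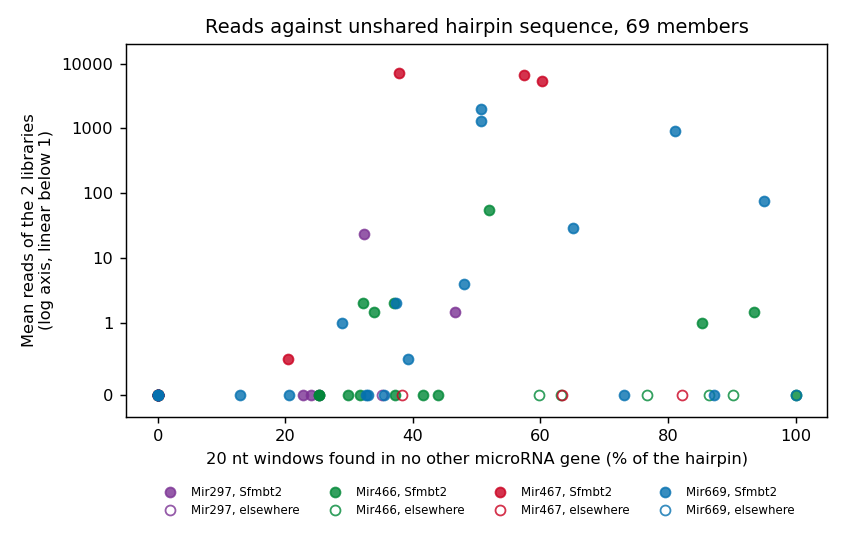
Mean reads of the 2 libraries (log axis, linear below 1) against the percent of 20 nt windows of a hairpin found in no other microRNA gene, for 69 members, filled inside Sfmbt2 and open elsewhere. The members at 0% stand at 0 reads, and the 6 highest genes lie between 37.9% and 81.1%.

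Sfmbt2, taken from end to end without regard to strand, also holds 48 microRNA genes with predicted Gm symbols in M21. Of these 7 had any read, 5 reads in replicate 1 and 12 in replicate 2 in all, and none had more than 4 in a library. In the array they numbered 32, with 0 and 2 reads.

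The 10 genes elsewhere are spread over 7 chromosomes. M21 places 6 of them in introns of protein-coding genes: Mir466q in Tnik on the host's strand, and Mir466i in Cdk13, Mir466k in Gm37240, Mir467f in Fxr2, Mir467g in Grk4 and Mir669n in Slc30a7 on the opposite strand. The other 4, Mir297-1, Mir466f-4, Mir466j and Mir467h, overlap no other gene. Their hairpins carried longer simple repeats than those of the cluster: the longest run of alternating G and T, or C and A, had a median of 13 nt (6 to 28) elsewhere and 9 nt (7 to 15) inside Sfmbt2. Each of the 10 had some windows of its own, with a median share of 70.0% (35.1 to 100), and each had 0 reads. Mir467h shared 81 nt with another gene, the longest stretch among the 10, and Gm25510 and Gm26303, which hold its mature sequence, had 0 reads as well.

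The 2 pools were then compared to see how evenly the members of 1 intron vary between replicates. Each gene's ratio of replicate 2 over replicate 1 was tested by an exact binomial test of the reads, adjusted over all 426 genes with at least 10 reads in a library. With 1 library on each side this compares the libraries and has no replicate check. At an adjusted p of 0.05, 1 of 10 members tested was called, beside 35.9% of all genes tested, and that 1 was lower in replicate 2, as were 20.7% of all genes tested. The members' median log2 ratio was 0.02, beside -0.01 over all genes tested, and 6 of the 10 were above 0.

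Mir467c was the gene called. Its level was 1328 CPM in replicate 1 and 1106 CPM in replicate 2. After TMM scaling, which all log2 ratios here carry and CPM do not, the log2 ratio was -0.28 (95% exact interval -0.34 to -0.23), and the exact binomial test gave an adjusted p of 1.58e-22. The log2 ratio was 0.02 (-0.03 to 0.07) for Mir467d and -0.02 (-0.07 to 0.03) for Mir467e. It was -0.01 (-0.11 to 0.08) for Mir669o and 0.03 (-0.08 to 0.14) for Mir669l. These 4 genes differed by less than their counting error. Mir669c was higher in replicate 2 at 0.16 (0.02 to 0.29), but its adjusted p of 0.0611 (exact binomial test) did not pass the threshold. It was called under the 5 other settings of that test: DESeq2 size factors (adjusted p 0.0374), total counts, a minimum of 1 or of 50 reads, and both strands together. For the 4 genes with fewer reads, Mir669e, Mir466n, Mir669h and Mir297a-2, the intervals ran from -1.14 to 1.04 and all held 0.

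The change of Mir467c can also be read within a library, where no scaling enters. Mir467d had 1.20 times the reads of Mir467c in replicate 1 (95% exact interval 1.16 to 1.25) and 1.48 times in replicate 2 (1.43 to 1.53). Mir467e had 1.14 times (1.10 to 1.19) and 1.37 times (1.32 to 1.42). By contrast, Mir467d had 1.05 times (1.02 to 1.09) and 1.08 times (1.05 to 1.12) the reads of Mir467e. Among the 15 ratios of the 6 highest genes, the 5 that involve Mir467c had intervals that did not overlap between the libraries, and the other 10 overlapped. The 5 share the counts of Mir467c and are not independent.

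The call of Mir467c rests on counting error as the only spread. With a coefficient of variation between pools set at 0.1 for each gene, the exact test of edgeR called 1.41% of the 426 genes and 0 of the 10 members, with 0 at an unadjusted p under 0.05, and the p of Mir467c was 0.174. The SD of the log2 ratio was 0.18 over the 208 genes that reached 100 CPM, and the middle 50% lay between -0.12 and 0.08. The log2 ratio of the families' summed reads was -0.06 (-0.08 to -0.03). That sum includes Mir467c, while Mir467d, Mir467e, Mir669o, Mir669l and Mir669c lay between -0.02 and 0.16. A sum without Mir467c was not tested, so the value does not describe the members at large.

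**Figure D4:**
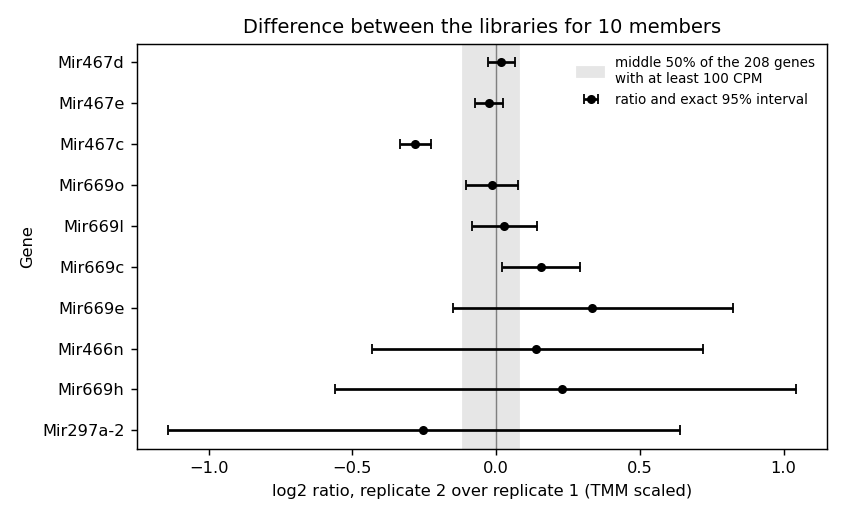
Log2 ratio of replicate 2 over replicate 1 (TMM scaled) of the 10 tested members, with exact 95% intervals for counting error, and the middle 50% of 208 genes with at least 100 CPM shaded. Mir467c at -0.28 is the only member whose interval lies wholly below 0, and the intervals widen toward the genes with few reads.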

How the data were processed

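MicroRNA sequencing gave 1 table for each of 2 hindbrain libraries, with a size range below 30 (unit not given) per the labels. The authors deposited raw read counts per microRNA gene, on mm10 with annotation M4 per the deposited notes. For the aligner, trimming and counter, the processing is not given in the sources used here. The layout resembles STAR's gene table, where reads at several loci are assigned to none; this is an inference. Totals leave out the 4 rows without a gene. Column 3 was used as the gene's own strand.

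Members, places, hosts and hairpins came from GENCODE M21 (GRCm38, the same build), which named 1894 of 1973 genes, and printed sequences from RefSeq. Scaling used TMM in edgeR 4.0.16 (R 4.3.3), with DESeq2 1.42.0 size factors or total counts as alternatives. The exact binomial test, with Benjamini-Hochberg adjustment over 426 genes, was run with scipy 1.17.1. Its check on simulated data drew counting error only, so spread between pools was not covered. Hairpins were aligned with Biopython 1.88.

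Named genes were members with at least 10 reads in a library, the highest of each family at each place, members called, microRNA genes in Sfmbt2 and genes that share a printed seed; members under 10 reads were named after their values were seen. Members and lists were chosen with earlier results of these data known. The labels call the pools biological replicates.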

Additional observations from a re-analysis of the deposited data

How the results depend on the processing

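The summed level of the families, all of it from Sfmbt2, was 5278 to 5427 CPM from either library alone. It was 5237 CPM with both strands in the count and total, 2498 CPM with all reads as the total, 3733 without Mir467d, and 0 over members that share under 20 nt with another gene, since each member with at least 10 reads shares more. Members with at least 10 reads in both libraries stayed at 10 in either library alone, with a minimum of 5 reads or with both strands, and reached 15 at 1 read. Called members rose from 1 to 2, Mir467c and Mir669c, with DESeq2 size factors, total counts, a minimum of 1 or 50 reads, or both strands. They fell to 0 with edgeR's exact test at a coefficient of variation of 0.1 or 0.2, where 6 and 0 of 426 genes were called in place of 153. The adjusted p of Mir669c was 0.0335 to 0.0374 by the exact binomial test with total counts or DESeq2 size factors. The summed log2 ratio was -0.0897 without Mir467d, which leaves Mir467c in the sum, and -0.05 to -0.04 under other settings. Windows of 18 or 22 nt, added after seeing the data, left 20 members without one of their own. The genes elsewhere had no leading member to leave out. No paired analysis was possible because the series has 1 group. Depth limits the genes with few reads: at 23 and 24 reads the interval of Mir297a-2 ran from -1.14 to 0.64.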
